A study of Homo sapiens with 6 samples.

Results

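Transcripts of 10 genes that restrain or sustain WNT signalling in the intestinal crypt were followed in HCT116 cells with and without the zinc finger protein ZKSCAN3. The set comprised *RNF43*, *ZNRF3*, *NKD1*, *NKD2*, *AXIN2*, *NOTUM*, *LGR4*, *LGR5*, *SOX9* and *ASCL2*, each found by its symbol among the 46427 genes of the count table. Of these 10 genes, 8 passed the filter on low counts, which left 18366 genes in all. The set was chosen by the measured difference between the genotypes, in that *RNF43* and *SOX9* had lower and *NKD2* had higher read counts without ZKSCAN3. The differences of the 10 genes are therefore given as a description with their standard errors and without a test of their own. A count of their calls in the fits of all genes is given below, and nothing is read from it.

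WNT ligands bind Frizzled and LRP receptors at the cell surface, which blocks the destruction complex, so that beta-catenin accumulates and activates target genes with TCF/LEF factors. Several of these targets act back on the pathway: the ubiquitin ligases RNF43 and ZNRF3 remove Frizzled from the membrane, AXIN2 rebuilds the destruction complex, NKD1 and NKD2 bind Dishevelled, and NOTUM inactivates WNT ligands outside the cell. The LGR receptors bind R-spondins and thereby take RNF43 and ZNRF3 off the membrane, and at the crypt base LGR5, ASCL2 and SOX9 mark stem and progenitor cells.

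HCT116 is a colorectal carcinoma cell line that carries an activating mutation of beta-catenin. Parental cells with wild type *ZKSCAN3* (*ZK3*-WT) were compared with *ZK3*-KO cells, in which both alleles were mutated with CRISPR/Cas9 aimed at the first exon. Each genotype was grown untreated in DMEM with 10% FBS and sequenced as 3 libraries of polyadenylated RNA. The *ZK3*-KO line was grown from a single cell under puromycin, and no parental line grown from a single cell is described, so the effect of the gene and of the clone cannot be told apart.

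Between 60827060 and 69739215 reads were counted per library. *ZK3*-KO replicate 3 stood apart, with correlations of log2 CPM (read counts scaled to a common library size) of 0.963 and 0.950 with the other *ZK3*-KO libraries. Those among *ZK3*-WT libraries were 0.983 to 0.989. The highest correlation of this knockout replicate was 0.965, with *ZK3*-WT replicate 3. Results that rest on *ZK3*-KO replicate 3 are given with and without it. *ZKSCAN3* itself was at 28.1, 23.4 and 19.8 CPM in *ZK3*-WT and 25.4, 24.9 and 13.6 CPM in *ZK3*-KO replicates 1, 2 and 3. A mutation in the first exon need not remove the transcript, so this level does not check the labels. The epithelial genes *EPCAM*, *KRT8*, *KRT18* and *CDH1* were abundant in both genotypes, *VIL1* was near 0, and the blood cell genes *PTPRC* and *CD3E* had no read. The summed level of the 9 epithelial genes was between 2813 and 5637 CPM, with the highest sum in *ZK3*-KO replicate 3. Of 13 fibroblast, endothelial and blood cell genes 4 passed the filter, and their sum was between 37.5 and 109 CPM, most of it from *COL1A1*.

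*RNF43* had the largest log2 fold change of the 8 genes. The gene lies on chromosome 17 (GRCh37, 56431037 to 56494956, reverse strand). Its normalised level was 117, 177 and 118 CPM in *ZK3*-WT and 40.1, 41.2 and 31.4 CPM in replicates 1, 2 and 3 of *ZK3*-KO. The genotypes did not overlap, and the lowest parental library was far above the highest knockout library. The mean was 137 ± 34.5 CPM in parental and 37.6 ± 5.36 CPM in knockout cells (mean ± SD, n = 3 cultures), and the fitted log2 fold change was -1.87 ± 0.22 (SE), a 3.66-fold lower level. Without *ZK3*-KO replicate 3 the log2 fold change was -1.75. In bulk RNA, fewer cells that transcribe a gene and less RNA per cell cannot be told apart.

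*ZNRF3*, the paralog of *RNF43* with the same task at the membrane, lies on chromosome 22 (29279560 to 29453476, forward strand) and did not separate the genotypes. Its level was 28.7, 30.3 and 23.9 CPM in *ZK3*-WT and 22.4, 26.1 and 16.7 CPM in *ZK3*-KO libraries, and these ranges overlapped. The log2 fold change was -0.34 ± 0.20, and -0.18 ± 0.16 without *ZK3*-KO replicate 3. The knockout library was the lower one within each replicate number. With that number as a block the value was -0.36 ± 0.15. This pairing was taken from the data, since the sources do not say what the numbers mark. Per transcript length, *RNF43* was at 5.78, 8.29 and 7.03 times the TPM (reads scaled by transcript length and library) of *ZNRF3* in parental replicates 1, 2 and 3, and 2.54, 2.43 and 2.79 times in those of the knockout. The summed TPM of both ligases was 68.6 ± 17.3 in *ZK3*-WT and 22.4 ± 5.94 in *ZK3*-KO libraries. *RNF43* was thus the more abundant of the pair in every library, by a smaller factor in each knockout library than in any parental one.

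Of the *NKD* pair, which binds Dishevelled, *NKD2* alone separated the genotypes, with higher levels in *ZK3*-KO. *NKD2* lies near the end of chromosome 5 (1008917 to 1039058, forward strand). Its level was 11.5, 9.83 and 11.5 CPM in *ZK3*-WT and 20.9, 20.9 and 21.1 CPM in *ZK3*-KO libraries. All 3 knockout libraries lay above all parental ones, and they spread over no more than a 1.01-fold range. Among all tested genes 0.229% had a smaller range there. In TPM the knockout libraries were at 20.4, 20.4 and 16.5, so this closeness was particular to the CPM scale. The log2 fold change was 0.94 ± 0.15, a 1.92-fold higher level. It was also 0.94 without *ZK3*-KO replicate 3, and 0.76 ± 0.17 on log2(TPM + 1).

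*NKD1*, on chromosome 16 (50582307 to 50683160, forward strand), was at 37.0, 29.2 and 22.3 CPM in *ZK3*-WT and 38.3, 32.9 and 17.9 CPM in *ZK3*-KO libraries. The groups overlapped almost wholly, with a log2 fold change of 0.01 ± 0.31 that turned negative with library totals, on TPM and in other settings. It ranged between -0.20 and 0.28, with the highest value (0.28 ± 0.20) without *ZK3*-KO replicate 3. The ratio of *NKD2* to *NKD1* in TPM was 2.47, 2.70 and 4.14 in *ZK3*-WT and 4.35, 5.08 and 9.41 in *ZK3*-KO replicates. *NKD2* was the more abundant of the pair per length in every library.

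The bases before the annotated starts are shown for *RNF43* and *NKD2*, since these 2 genes moved in opposite directions and the sequence before their starts differs in composition. RefSeq promoter windows of 300 bases on GRCh38.p14 were at hand for 3 of the 10 genes, *RNF43*, *NKD2* and *LGR4*. The 250 bases upstream of a start are printed 5′ to 3′ on the gene's strand, with CpG dinucleotides in capitals. The *RNF43* stretch is chr17:58417535-58417784 on the reverse strand, and the *NKD2* stretch is chr5:1008552-1008801 on the forward strand.
RNF43: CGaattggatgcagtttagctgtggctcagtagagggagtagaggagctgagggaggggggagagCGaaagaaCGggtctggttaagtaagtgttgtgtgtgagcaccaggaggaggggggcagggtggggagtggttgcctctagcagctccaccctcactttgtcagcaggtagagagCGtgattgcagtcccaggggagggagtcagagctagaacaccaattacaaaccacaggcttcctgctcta
NKD2: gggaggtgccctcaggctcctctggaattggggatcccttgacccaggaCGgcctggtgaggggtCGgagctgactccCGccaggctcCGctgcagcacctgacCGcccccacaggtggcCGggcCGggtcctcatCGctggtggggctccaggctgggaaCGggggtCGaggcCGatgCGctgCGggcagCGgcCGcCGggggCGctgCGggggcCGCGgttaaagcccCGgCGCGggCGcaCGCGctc
The *RNF43* window held 5 CpG dinucleotides at 54.3% GC, and a second annotated *RNF43* start held 0 at 43.7% GC. The *NKD2* window held 35 at 77% GC, more than 85.9% of all promoter windows, whose median was 14, and the *LGR4* window held 18. None of these windows contained, on either strand, any of 4 TCF/LEF sequences, which were CTTTGAA and CTTTGAT, along with CTTTGTA and finally CTTTGTT. These 4 sequences occurred in 13.8% of 35116 promoter windows and in 9.74% of the 17951 windows of tested genes, and their absence says nothing about binding elsewhere.

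**Figure D1:**
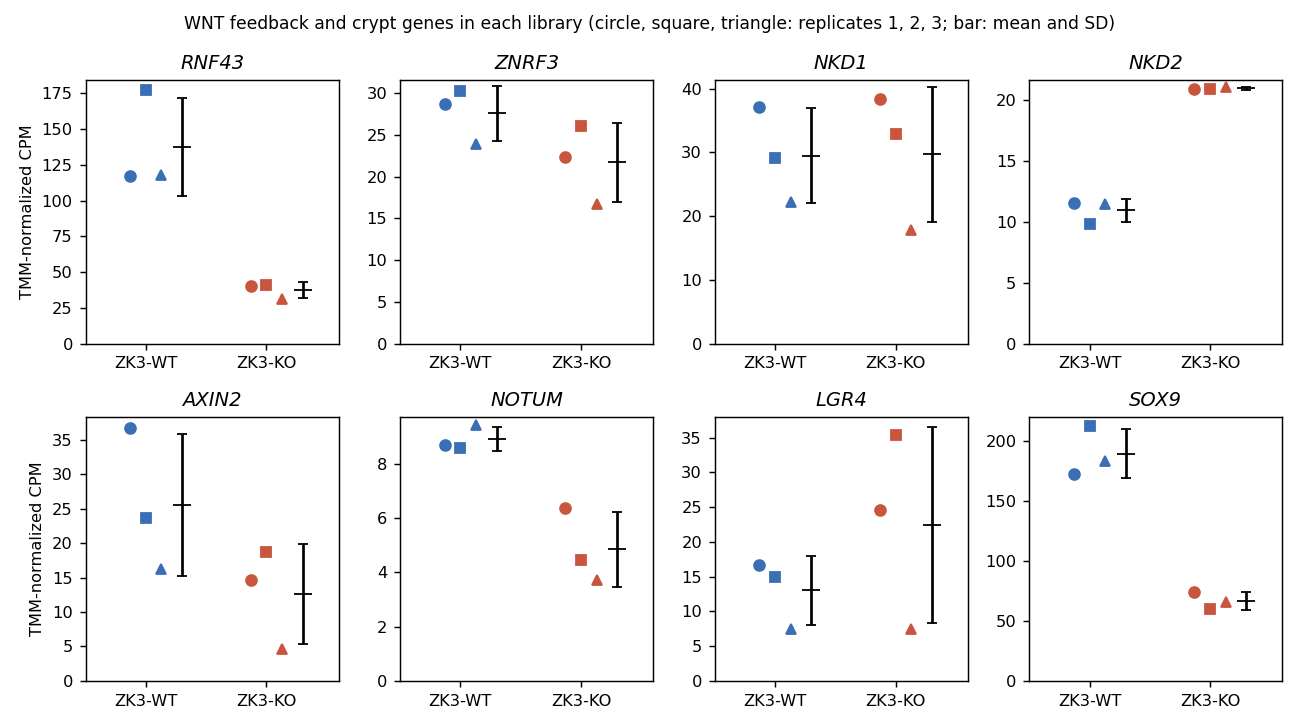
TMM-normalized CPM of 8 genes in each library, with ZK3-WT in blue and ZK3-KO in red, symbols for replicates 1, 2 and 3, and the mean and SD of 3 libraries in black. RNF43 and SOX9 lay lower in every ZK3-KO library than in any ZK3-WT library, NKD2 lay higher, and LGR4 ranged from 7.44 to 35.3 CPM within ZK3-KO.

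AXIN2, a scaffold of the destruction complex and a widely used readout of WNT target activity, varied within each genotype. The gene lies on chromosome 17 (63524681 to 63557766, reverse strand). It was at 36.7, 23.7 and 16.3 CPM in *ZK3*-WT and 14.6, 18.8 and 4.64 CPM in *ZK3*-KO libraries. The lowest parental library was below the highest knockout library, so the groups overlapped. The log2 fold change was -1.01 ± 0.51, and -0.61 without *ZK3*-KO replicate 3, which held the lowest level. Within each replicate number the knockout library was the lower one, and with the number as a block the log2 fold change was -1.15 ± 0.29. That pairing was taken from these data, and the sources do not say what the numbers mark.

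*NOTUM*, which encodes a secreted enzyme that strips the lipid from WNT ligands, lies on chromosome 17 (79910383 to 79919716, reverse strand). It was at 8.70, 8.57 and 9.41 CPM in *ZK3*-WT and 6.37, 4.46 and 3.71 CPM in *ZK3*-KO libraries. The groups did not overlap. The log2 fold change was -0.88 ± 0.24, and -0.71 without *ZK3*-KO replicate 3.

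*LGR4*, the R-spondin receptor of this set that HCT116 cells transcribed, lies on chromosome 11 (27387508 to 27494337, reverse strand). It was at 16.7, 14.9 and 7.42 CPM in *ZK3*-WT and 24.5, 35.3 and 7.44 CPM in *ZK3*-KO libraries. Replicates 1 and 2 of the knockout were above all parental libraries and replicate 3 was level with the lowest of them. The log2 fold change of 0.79 ± 0.54 became 1.21 without *ZK3*-KO replicate 3 and 0.30 without *ZK3*-KO replicate 2. With the replicate number as a block, a pairing taken from these data, it was 0.61 ± 0.25, and the libraries numbered 3 were level.

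*LGR5*, the defining marker of crypt base stem cells, had 3 reads in *ZK3*-KO replicate 1 and 0 in the other 5 libraries. *ASCL2*, a transcription factor of the same cells, had 0 reads in all 6. A count of 0 allows a level of up to 0.0430 to 0.0493 CPM per library (3 reads, counting error only). These 2 genes did not pass the filter. They lie on chromosome 12 (71833578 to 71980090, forward strand) and chromosome 11 (2289728 to 2291818, reverse strand).

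*SOX9*, a transcription factor of crypt stem and progenitor cells, was the most abundant of the 10 genes per length in both genotypes, at 102 ± 13.2 TPM in *ZK3*-WT and 33.0 ± 5.70 TPM in *ZK3*-KO cells. The gene lies on chromosome 17 (70117161 to 70122557, forward strand). It was at 173, 212 and 184 CPM in *ZK3*-WT and 74.1, 59.7 and 66.1 CPM in *ZK3*-KO libraries. The groups were far apart and the libraries within each were close, with a CV of 10.8% in both. The log2 fold change was -1.51 ± 0.16, a 2.85-fold lower level.

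By mean TPM in *ZK3*-WT cells *SOX9* was followed by *RNF43* (60.1), *AXIN2* (12.5), *NKD2* (10.8), *ZNRF3* (8.49), *NOTUM* (8.45), *LGR4* (5.24) and *NKD1* (3.65). In *ZK3*-KO cells *NKD2* (19.1) came after *SOX9* and ahead of *RNF43* (16.1), followed by *LGR4* (8.75), *ZNRF3* (6.32), *AXIN2* (5.98), *NOTUM* (4.31) and *NKD1* (3.48). In *ZK3*-WT cells the ranges of *AXIN2* and *NKD2*, of *ZNRF3* and *NOTUM*, and of *LGR4* and *NKD1* overlapped. In *ZK3*-KO cells the ranges of all neighbours in the order after *SOX9* overlapped, so their order there is not beyond the spread.

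The quasi-likelihood test of edgeR called 3 of the 8 genes past the filter at an FDR of 0.05, where 2.05% of all tested genes were called. It called 2 as lower (1.23% of all tested genes) and 1 as higher (0.817%). With the replicate number as a block 3 were called (2.51% of all), by DESeq2 4 (8.2%, with *NOTUM* added) and without *ZK3*-KO replicate 3 also 4 (15.1%, with *LGR4* added). On log2(TPM + 1) 2 were called, without *NKD2*. Without *ZK3*-KO replicates 1 and 2 the count was 1 and 2, and without *ZK3*-WT replicates 1, 2 and 3 it was 2, 1 and 1. The groups of 4 did not overlap, where those of 26.6% of all tested genes did not. For lower levels these were 3 genes (13.8% of all) and for higher levels 1 (12.7%). These counts follow from how the genes were chosen, and nothing is read from them. The median log2 fold change was -0.61, against 0.02 over all tested genes. The median of all genes moved to -0.08 on log2(TPM + 1), and of the 8 genes *NKD1* alone changed sign there.

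**Figure D2:**
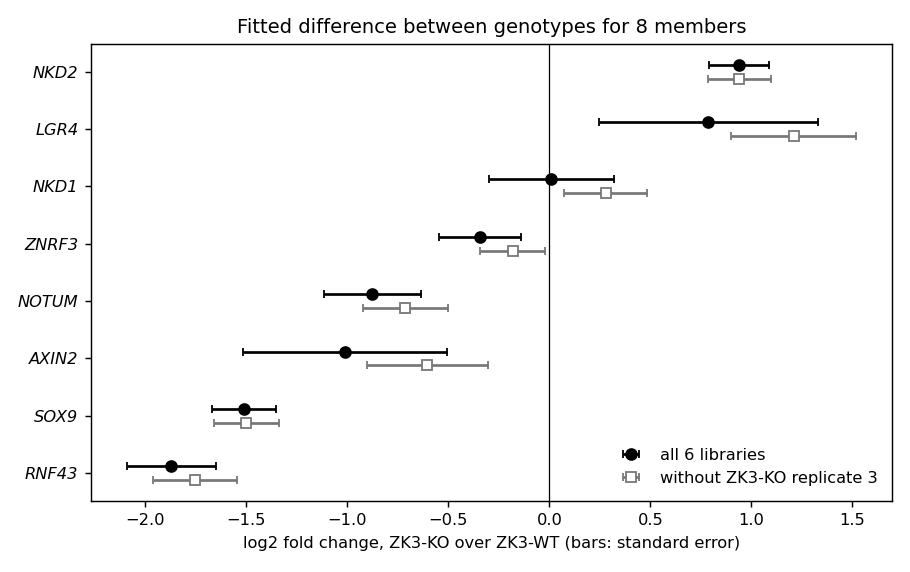
Log2 fold change of ZK3-KO over ZK3-WT with its standard error for 8 genes, from all 6 libraries (black circles) and without ZK3-KO replicate 3 (open squares). RNF43 (-1.87), SOX9 (-1.51) and NKD2 (0.94) moved little, while AXIN2 went from -1.01 to -0.61 and LGR4 from 0.79 to 1.21.

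The genes also differed in how they varied among cultures of 1 genotype. *AXIN2*, *LGR4*, *NKD1* and *ZNRF3* were each lowest in replicate 3 of both genotypes. Within *ZK3*-KO the range from lowest to highest library was 4.69-fold for *LGR4*, 3.98-fold for *AXIN2*, 2.14-fold for *NKD1* and 1.56-fold for *ZNRF3*, against a median of 1.55-fold over all tested genes. The range of *SOX9* was 1.24-fold and that of *RNF43* 1.31-fold. A list of 15 G1/S genes moved with *ZK3*-KO replicate 3: its median deviation from the genotype mean was 0.34, 0.81 and -1.09 on the log2 scale in *ZK3*-KO replicates 1, 2 and 3, and 0.36, -0.25 and -0.10 in *ZK3*-WT. In *ZK3*-KO replicate 3 *AXIN2* deviated by -1.21, *LGR4* by -1.31 and *NKD1* by -0.66, and *SOX9* by -0.01. *AXIN2* deviated by 0.60, -0.03 and -0.57 in *ZK3*-WT replicates 1, 2 and 3, and *LGR4* by 0.44, 0.28 and -0.72. *NKD1* deviated there by 0.36, 0.01 and -0.37. Their lowest *ZK3*-WT library was thus replicate 3, while that of the G1/S median was replicate 2. Between the genotypes all 15 G1/S genes had a positive log2 fold change, with a median of 0.79. With all libraries edgeR called 0 of them (2 at an unadjusted p under 0.05, 1 by DESeq2), and without *ZK3*-KO replicate 3 it called all 15, with a median of 1.20. Of all 18366 tested genes, 3371 had an unadjusted p under 0.05, and DESeq2 called 8.2%. Without *ZK3*-KO replicate 3 edgeR called 15.1% of all genes. In its own assays the paper reports slower proliferation of *ZK3*-KO than of *ZK3*-WT cells, with more cells in G2/M. The part of proliferation in the levels of the WNT feedback genes was not tested.

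**Figure D3:**
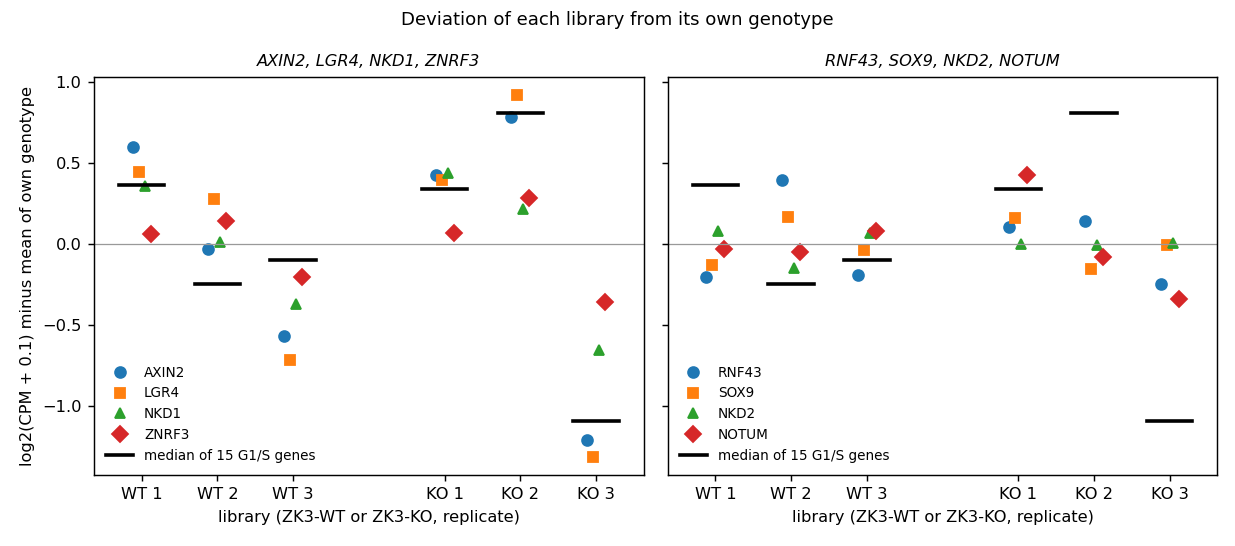
Deviation of each library from the mean of its own genotype on the log2(CPM + 0.1) scale, for AXIN2, LGR4, NKD1 and ZNRF3 (left) and RNF43, SOX9, NKD2 and NOTUM (right), with the median of 15 G1/S genes as black bars. In ZK3-KO replicate 3 LGR4 (-1.31) and AXIN2 (-1.21) lay with the G1/S median (-1.09), while SOX9 (-0.01) and NKD2 (0.01) lay at 0. In ZK3-WT replicate 3 LGR4 (-0.72) and AXIN2 (-0.57) lay below the G1/S median (-0.10).

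Genes of the same pathway outside the set were compared to see whether they differed too. Of 125 such genes in 7 lists, 99 were tested and edgeR called 3 at an FDR of 0.05, all lower in *ZK3*-KO, against 2.05% of all genes tested. In all, 43 were higher and 56 lower, with a median log2 fold change of -0.04 against 0.02 over all genes. Without *ZK3*-KO replicate 3, 23 passed (14 lower), where 15.1% of all genes did. Without any 1 of the other 5 libraries, 0 or 1 passed.

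*JAG1*, a Notch ligand and beta-catenin target, was at 79.0, 141 and 106 CPM in *ZK3*-WT and 40.4, 45.8 and 30.7 CPM in *ZK3*-KO libraries. The groups did not overlap, and it fell by 1.48 ± 0.25 on the log2 scale (edgeR FDR = 0.0346). *ID3*, an inhibitor of helix-loop-helix transcription factors found in crypt base cells, was at 73.1, 73.7 and 65.0 CPM in *ZK3*-WT and 32.2, 33.9 and 34.0 CPM in *ZK3*-KO libraries. It fell by 1.08 ± 0.13 (edgeR FDR = 0.0113). *ETS2*, an ETS family transcription factor, fell from 77.9 ± 4.87 to 40.6 ± 6.15 CPM (SD, n = 3), a log2 fold change of -0.94 ± 0.16 (edgeR FDR = 0.0330). *ETS2* lies on chromosome 21, whose 148 tested genes had a median of -0.39, and the part of that shift was not tested.

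With all 6 libraries edgeR called no gene of the core machinery. Over all 18366 tested genes, 3371 were at an unadjusted p under 0.05 and 8.2% passed by DESeq2. Of 20 receptors, R-spondins and Dishevelled genes 0 passed (2 at an unadjusted p under 0.05, 1 by DESeq2), and of 15 destruction complex genes 0 passed (1 at an unadjusted p under 0.05, 1 by DESeq2). *CTNNB1*, which encodes beta-catenin, was at 286 ± 36.6 CPM in *ZK3*-WT and 365 ± 88.0 CPM in *ZK3*-KO cells, with a log2 difference of 0.35 ± 0.22 (edgeR FDR = 0.437). Without *ZK3*-KO replicate 3 the log2 difference was 0.55 and passed (edgeR FDR = 0.0304). *GSK3A*, a kinase of the complex, had 0.56 ± 0.16 (edgeR FDR = 0.131), and *DVL1*, a Dishevelled gene, -0.19 ± 0.24, which became -0.50 without *ZK3*-KO replicate 3 (edgeR FDR = 0.0447). Of 11 TCF/LEF factors and co-activators 0 passed (0 at an unadjusted p under 0.05, 0 by DESeq2). *TCF7L2*, the main TCF of the colon, had -0.12 ± 0.34 and *BCL9L*, a co-activator, -0.50 ± 0.30, while *LEF1* had no read. Without *ZK3*-KO replicate 3 *BCL9L* was at -0.91 (edgeR FDR = 0.0135) and *TCF7L2* at 0.21 (edgeR FDR = 0.299). In that fit 2 of the receptor, R-spondin and Dishevelled genes, 2 of the destruction complex genes and 3 of the TCF/LEF genes passed. Of all genes 15.1% passed there, so nothing is read from these counts.

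*RSPO1*, an R-spondin, had 65, 49 and 85 reads in *ZK3*-WT and 8, 0 and 0 in *ZK3*-KO replicates 1, 2 and 3. The groups did not overlap, at low levels, and the difference missed the threshold (edgeR FDR = 0.0725, between 0.000167 and 0.260 over the alternatives). It passed without *ZK3*-KO replicate 3 (edgeR FDR = 0.0156) and without *ZK3*-KO replicate 1 (edgeR FDR = 0.0407). Of 15 WNT ligand and export genes 0 passed (4 at an unadjusted p under 0.05, 3 by DESeq2). Over all tested genes the unadjusted p was under 0.05 for 3371 of 18366, and DESeq2 called 8.2%. *WLS*, which carries WNT ligands to the surface, had 0.67 ± 0.15 (edgeR FDR = 0.0738), and *WNT7A* had -1.64 ± 0.57 at under 1 CPM (edgeR FDR = 0.194). Both passed without *ZK3*-KO replicate 3 (edgeR FDR = 0.0202 and 0.0395).

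Of 6 secreted and membrane antagonists 0 passed (2 at an unadjusted p under 0.05, 2 by DESeq2). Among all 18366 tested genes 3371 were at such a p, and DESeq2 called 8.2%. *DKK1*, a secreted LRP inhibitor and WNT target, was at 56.0, 62.3 and 49.7 CPM in *ZK3*-WT and 217, 282 and 43.7 CPM in *ZK3*-KO libraries. As for *LGR4*, replicates 1 and 2 of the knockout were above all parental libraries and replicate 3 was not. Its log2 fold change was 1.69 ± 0.58 (edgeR FDR = 0.190, and 0.000207 without *ZK3*-KO replicate 3).

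Of 18 other beta-catenin targets 2 passed (*JAG1* and *ETS2*), with a median of -0.14, and of 14 other crypt base genes 1 passed (*ID3*), with a median of -0.19. *CCND1*, cyclin D1, was the most abundant of the targets and had -0.10 ± 0.19 (edgeR FDR = 0.832). *MMP7*, a matrix metalloproteinase, had -1.57 ± 0.71 at under 1 CPM (edgeR FDR = 0.297), and *ID1*, the paralog of *ID3*, had -0.33 ± 0.39 (edgeR FDR = 0.706), and -0.91 without *ZK3*-KO replicate 3 (edgeR FDR = 0.0148). *OLFM4*, a further stem cell marker, had no read, as *ASCL2* had none.

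**Figure D4:**
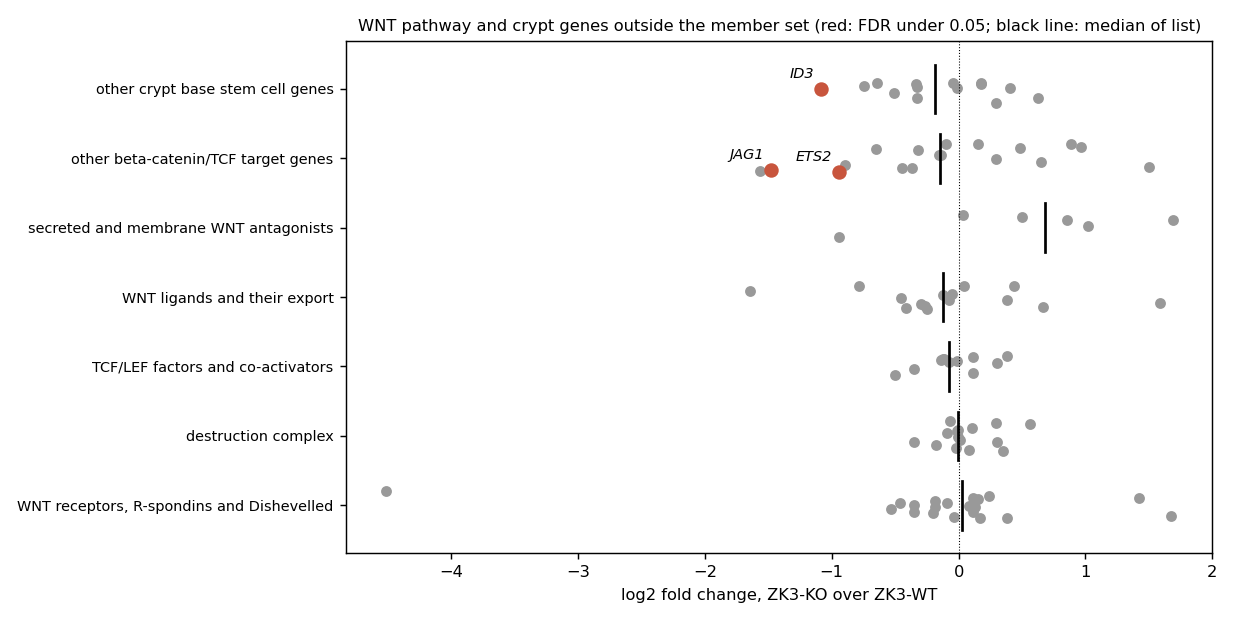
Log2 fold change of ZK3-KO over ZK3-WT for 99 tested genes in 7 lists, 1 point a gene, with genes past an FDR of 0.05 in red and the median of each list as a black line. JAG1 (-1.48), ID3 (-1.08) and ETS2 (-0.94) passed, and the point at -4.52 is RSPO1, whose fitted value rests on 8, 0 and 0 reads in ZK3-KO.

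Neighbouring genes were compared to see whether the differences reached beyond the genes themselves. The 10 tested genes on either side of each of the 10 genes made 200 neighbours with a median log2 fold change of 0.03, of which 3 passed an FDR of 0.05, against 2.05% of all genes. Around *SOX9* the median was -0.05, around *RNF43* -0.06 and around *NKD2* 0.22. The largest shift was around *NOTUM*, where 15 of 20 neighbours had a positive value and the median was 0.32, opposite in sign to *NOTUM* itself (-0.88). Of these neighbours edgeR called 0 (5 at an unadjusted p under 0.05, 2 by DESeq2). Among all 18366 tested genes 3371 were at such a p, and DESeq2 called 8.2%. *RNF43*, *AXIN2*, *SOX9* and *NOTUM* share chromosome 17, whose 1014 tested genes had a median of 0.04.

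The tested genes nearest to *SOX9* had negative log2 fold changes too. *SOX9-AS1*, a long noncoding RNA on the opposite strand that overlaps *SOX9*, had 230, 270 and 251 reads in *ZK3*-WT and 91, 43 and 85 in *ZK3*-KO replicates. Its log2 fold change was -1.70 ± 0.35 (edgeR FDR = 0.0583). The kit kept the strand, but the sources used here do not say whether counting did, so reads of both genes may not be told apart. *LINC00511*, a long noncoding RNA that lies 164 kb beyond *SOX9* (chromosome 17, 70286232 to 70636611), had 188, 109 and 97 reads in *ZK3*-WT and 27, 10 and 16 in *ZK3*-KO replicates. The groups did not overlap, at low levels, and it fell by 2.85 ± 0.50 (edgeR FDR = 0.0389). *RPL32P33*, a ribosomal protein pseudogene within the *LINC00511* span, had 9, 26 and 12 reads against 0 in each *ZK3*-KO library, and reads of such a copy are uncertain. Past these, *SLC39A11* had 0.07 on one side and *MAP2K6* 1.14 on the other, and neither passed the test.

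**Figure D5:**
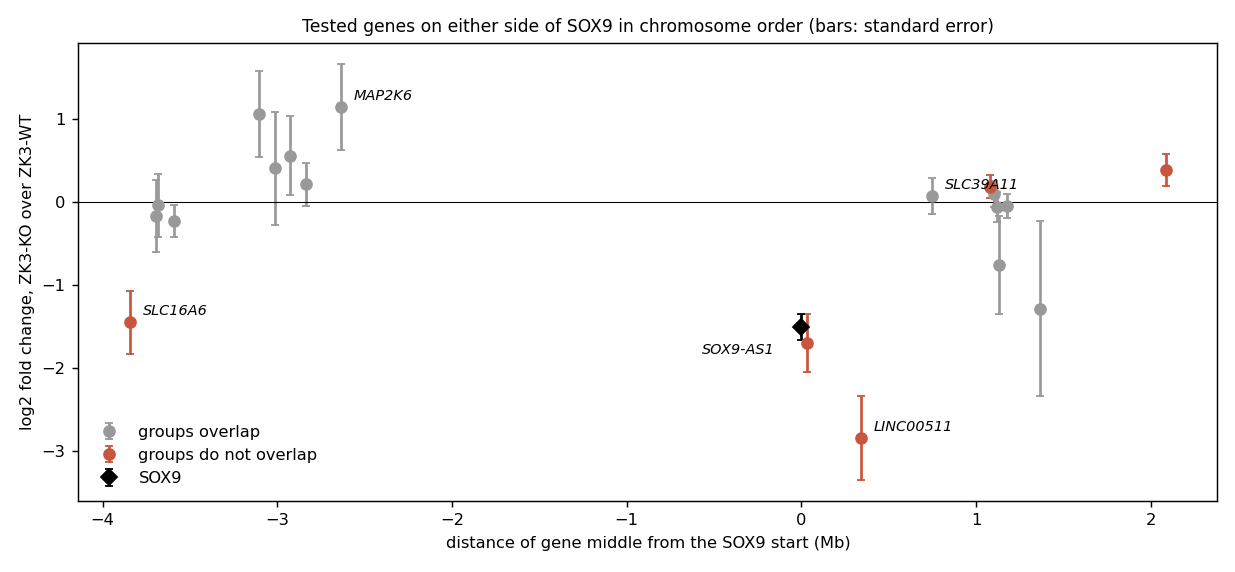
Log2 fold change with its standard error of tested genes on either side of SOX9 against distance from its start in Mb, with genes whose groups did not overlap in red and SOX9 as a black diamond (RPL32P33, at 0 reads in ZK3-KO, is not drawn). SOX9-AS1 (-1.70) and LINC00511 (-2.85) lay beside SOX9 (-1.51), while the median of all 20 neighbours was -0.05.

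*VEZF1*, a zinc finger transcription factor 365 kb from *RNF43*, was at 115, 114 and 112 CPM in *ZK3*-WT and 56.1, 49.9 and 56.3 CPM in *ZK3*-KO libraries. It fell by 1.07 ± 0.13 (edgeR FDR = 0.0112). *IRX4*, a homeobox gene 838 kb from *NKD2*, was at 12.7, 14.1 and 14.8 CPM in *ZK3*-WT and 22.6, 34.5 and 32.1 CPM in *ZK3*-KO libraries. It rose by 1.10 ± 0.20 (edgeR FDR = 0.0405). *TSPOAP1-AS1*, which overlaps *RNF43* on the opposite strand, had at most 53 reads in a library, against at least 1941 for *RNF43*.

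The genes whose levels followed *RNF43* most closely over the 6 libraries were *CAMK2D* and *RRAGB* (Pearson's r of 0.997 each) and *PHF14* (0.996). For *SOX9* they were *SLC35A5* and *TSPAN18* (0.997 each) and *MCOLN3* (0.996). For *NKD2* they were *BLOC1S1-RDH5* (0.998), *SLC39A9* and *LOC100507065* (0.994 each). The libraries form 2 groups by genotype and these values follow mainly from the difference between them, so they are a description only.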

How the data were processed

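RNA of 3 *ZK3*-WT and 3 *ZK3*-KO cultures was sequenced by the authors as 150 bp paired ends. The authors deposited a count of reads per gene without normalization, with FPKM values (not used here) and TPM values, both scaled by transcript length and library. The submitters' processing notes name Bowtie2 2.2.5 and hg19, and the counting strand is not given in the sources used here.

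Counts were filtered with filterByExpr, normalized with TMM and compared with edgeR 4.0.16 (quasi-likelihood test, genotype as the only factor, Benjamini-Hochberg FDR threshold of 0.05) in R 4.3.3. The SE is the log2 fold change divided by the square root of F. TPM served for levels between genes and for 1 alternative, limma 3.58.1 on log2(TPM + 1). DESeq2 1.42.0 was an alternative. The methods of the paper name an ANOVA on TPM; a count test was used because counts were deposited. Deviations used log2(CPM + 0.1), and likeness used log2(CPM + 0.5) over genes whose average log2 CPM reached 1.

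The genes and lists were chosen with earlier results of these data known. Named genes are the members, *ZKSCAN3*, pathway genes and neighbours past the threshold, the most abundant and the most changed gene of each list, overlapping genes, and the 3 genes most like *RNF43*, *SOX9* and *NKD2*. *LEF1*, *OLFM4*, *RPL32P33*, *SLC39A11* and *MAP2K6* were named after their values were seen. Positions were looked up by symbol in a GRCh37 annotation (89.9% of tested genes). Across genes, the deviations of libraries that share a replicate number correlated at 0.294, 0.112 and 0.449 for numbers 1, 2 and 3. Unlike numbers gave -0.343 to 0.209, so that parental replicate 1 correlated more with knockout replicate 2 than parental replicate 2 did. The numbers were taken as a pairing from the data because the sources do not say what the numbers mark. On simulated counts with 200 genes changed, edgeR tested 18021 genes and called 130, 8 of them false, recovering 94 of 102 4-fold and 28 of 98 2-fold changes. Other alternatives were library totals, upper-quartile factors, a filter of 1 read in total, a filter of 10 reads per library, the replicate number as a block, and each library left out in turn.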

Additional observations from a re-analysis of the deposited data

How the results depend on the processing

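The fits called 376 genes (150 higher, 39.9% of calls), 3 pathway genes and 3 neighbours. DESeq2 called 1506, 14 and 12. Leaving out 1 library gave between 49 and 2858 genes, between 0 and 23 pathway genes and between 0 and 37 neighbours, with the highest of each without *ZK3*-KO replicate 3. Without *ZK3*-KO replicates 1 and 2, 74 and 158 genes were called, and without *ZK3*-WT replicates 1, 2 and 3, 67, 49 and 57. Calls were higher in *ZK3*-KO for 23.0% on log2(TPM + 1) and 30.1% with library totals. With the replicate block 461 genes, 4 pathway genes (*KREMEN2* added, edgeR FDR = 0.0422) and 3 neighbours were called. The block changed no other call named here.

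Over the 13 alternatives the log2 fold change was between -1.97 and -1.65 for *RNF43*, -1.61 and -1.42 for *SOX9*, 0.76 and 0.98 for *NKD2*, -1.11 and -0.71 for *NOTUM*, and -0.50 and -0.18 for *ZNRF3*. *JAG1* passed in 7, *ETS2* in 8, *ID3* in 9, *VEZF1* in 9, *LINC00511* in 8 and *IRX4* in 6. Calls of all 6 were lost without *ZK3*-KO replicate 1 and without each *ZK3*-WT library. These fits hold fewer samples, as does the fit without *ZK3*-KO replicate 3, which kept all 6 and called 2858 genes. Why the calls were lost was not tested. With 3 libraries a genotype, 2-fold changes were often missed in simulated data, and fits with a library left out were not simulated.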

Other observations

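*WNT7B*, a WNT ligand, was named after its values were seen. It was at 9.76, 5.75 and 6.38 CPM in *ZK3*-WT and 15.2, 19.8 and 31.0 CPM in *ZK3*-KO libraries, in replicate order. The groups did not overlap, and the log2 fold change was 1.59 ± 0.32 (edgeR FDR = 0.0560, between 0.000140 and 0.273 over the alternatives). *CA2*, a carbonic anhydrase of differentiated colonic epithelium, was at 10.6 ± 2.65 CPM in *ZK3*-WT and 30.5 ± 15.7 CPM in *ZK3*-KO cells (edgeR FDR = 0.129). In *ZK3*-KO replicate 3 it was at 12.7 CPM, within the parental range of 8.60 to 13.6 CPM, as *LGR4* was. *CA2* passed by DESeq2 and in the edgeR fit without *ZK3*-KO replicate 3. Of the 20 genes of the differentiated epithelium list, 9 had no read in any library. Only 4 were tested, of which 3 were higher and 1 was lower in *ZK3*-KO.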
